A study of Lathyrus oleraceus with 4 samples.

Results

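Sucrose synthase and UDP-glucose pyrophosphorylase were followed in developing pea seeds as 2 of the 77269 assembled transcript sequences (unigenes) in the expression table. The members were chosen by identifier: comp38328_c0_seq2, which the study names sucrose synthase, and comp37981_c0_seq1, which it names UTP-glucose-1-phosphate uridylyltransferase-like, another name for UDP-glucose pyrophosphorylase. Seeds of the field-grown vegetable pea cultivar Zhewan 1 and the field-grown grain pea cultivar Zhongwan 6 were profiled by RNA-Seq late and early in seed development, 25 and 10 days after pollination (DAP). The table holds 4 libraries, 1 for each group: late Zhewan 1 (25 DAP), early Zhewan 1 (10 DAP), late Zhongwan 6 (25 DAP) and early Zhongwan 6 (10 DAP). No allele, transgene or treatment is given for either cultivar, so that cultivar and stage are the only stated differences between the groups. Seeds from many plants were pooled into a biological sample, and how the replicate samples entered the 4 libraries is not given in the sources used here.

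Developing legume seeds import sucrose from the mother plant and draw on it for starch, cell walls, oil and storage protein. Sucrose synthase cleaves sucrose with UDP into fructose and UDP-glucose, in a reaction that can run both ways. UDP-glucose pyrophosphorylase then exchanges the UDP-glucose with pyrophosphate for glucose 1-phosphate and UTP, and this reaction is reversible too. In pea, mutations at the rug4 locus, which affect a seed sucrose synthase, lower the starch of the seed; whether comp38328_c0_seq2 comes from that locus was not examined. UDP-glucose also feeds the synthesis of cell wall polysaccharides and of sugar conjugates, and glucose 1-phosphate leads to ADP-glucose, the building block of starch.

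The libraries held 50086351 to 70912839 reads counted on unigenes, and the 100 most abundant unigenes took 41.1% to 56.2% of them. Levels are given as RPKM, the reads per kb of unigene scaled to the library's total of counted reads. With 1 library in each group no difference has a replicate check in these data, and intervals (95%, exact Clopper-Pearson for ratios of reads) cover counting error only. The study also reports replicated qRT-PCR on separately collected seeds, for unigenes it describes as randomly selected. Those values were not used here. A call between 2 libraries required a false discovery rate (FDR) of at most 0.001 in Fisher's exact test together with RPKM values that differed 2-fold or more. Such a test sets one library against another and says nothing of the conditions beyond them. The annotation words oleosin, late embryogenesis abundant, 2S albumin and cupin matched 8 unigenes. Of these, 6 reached an RPKM of 1 in at least 1 library, with a highest value of 89.0. The words are parts of family names: the late embryogenesis abundant ones are labelled hydroxyproline-rich glycoproteins, and the 2S albumin label also covers lipid-transfer proteins. The 8 are therefore not taken as markers of seed maturation. Their summed RPKM was 54.7 in late and 93.4 in early Zhewan 1 seeds, and 127 in late and 72.7 in early Zhongwan 6 seeds. Of these sums comp12737_c0_seq1 alone gave 24.5 in late and 64.2 in early Zhewan 1 seeds, and 89.0 in late and 25.5 in early Zhongwan 6 seeds. One of the 2S albumin family unigenes, comp12518_c0_seq1, had 11 reads in Zhongwan 6 at 25 DAP and 0 in the other libraries. These values come from seeds as a whole, so fewer cells of a type and less RNA per cell cannot be told apart.

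The sucrose synthase unigene comp38328_c0_seq2 was abundant in Zhewan 1 seeds at 25 DAP and much lower in the other libraries. Unigenes of other components that may belong to either enzyme were not looked for, so the values are not totals for an enzyme. The unigene, 2811 bp long, had 102659 reads in the late Zhewan 1 library and 3986 in the early one. In Zhongwan 6 the late library had 12135 reads and the early one 4508. In RPKM these are 654 in late and 28.3 in early Zhewan 1 seeds, and 60.9 in late and 26.4 in early Zhongwan 6 seeds. The late Zhewan 1 library stands alone at the top, the late Zhongwan 6 library comes next, and both early libraries lie close together at the bottom. By RPKM the unigene ranked 90 of 77269 in the late Zhewan 1 library and 1694 in the early one. Its rank in Zhongwan 6 was 960 at 25 DAP and 2193 at 10 DAP. It took 0.184% of all counted reads in Zhewan 1 at 25 DAP (Wilson 95% interval 0.183 to 0.185) and 0.0171% in the late Zhongwan 6 library (0.0168 to 0.0174).

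UDP-glucose pyrophosphorylase was likewise highest in the late Zhewan 1 library, with a smaller gap to the late Zhongwan 6 library. The unigene, 2055 bp long, had 27530 reads in the late Zhewan 1 library and 2109 in the early one. In Zhongwan 6 the late library had 14359 reads and the early one 2180. In RPKM these are 240.0 in late and 20.5 in early Zhewan 1 seeds, and 98.5 in late and 17.4 in early Zhongwan 6 seeds. Both late libraries lie well above both early ones, and the order of the 4 libraries is that of sucrose synthase. Its rank by RPKM was 306 in late and 2401 in early Zhewan 1 seeds, and 610 in late and 3596 in early Zhongwan 6 seeds.

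**Figure D1:**
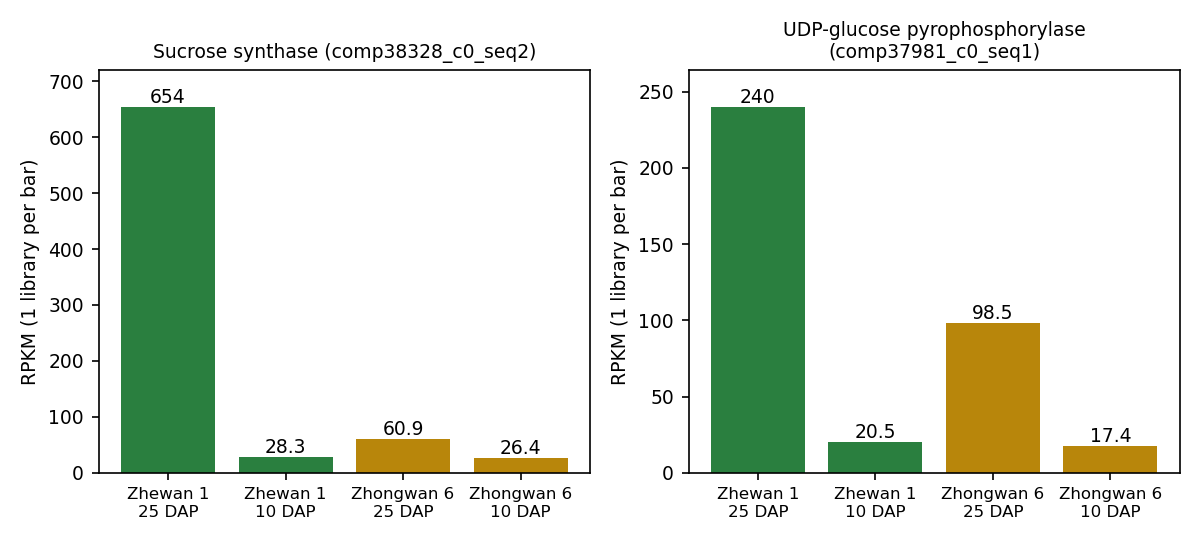
RPKM (y axis, linear from 0) of sucrose synthase, left, and UDP-glucose pyrophosphorylase, right, in the 4 libraries, 1 bar per library and no error bars because each group has 1 library. Sucrose synthase reached 654 RPKM in Zhewan 1 at 25 DAP and 60.9 or less in the other libraries, while UDP-glucose pyrophosphorylase stood at 240.0 and 98.5 RPKM in the late Zhewan 1 and Zhongwan 6 libraries and at 20.5 or less in the early ones.

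The first question was how both transcripts changed between the early and the late stage within each cultivar. In Zhewan 1, sucrose synthase rose 23.1-fold at 25 DAP over 10 DAP (22.4 to 23.9) and UDP-glucose pyrophosphorylase 11.7-fold (11.2 to 12.2). Both members were called, where 20.7% of the 74253 unigenes tested were called higher at 25 DAP, and 45.2% of those that reached an RPKM of 10 in the higher of the 2 libraries. A call in Zhewan 1 thus sets neither member apart from other abundant unigenes, and the median log2 ratio of the 2 members was 4.04 against 0.83 over those unigenes. In Zhongwan 6, sucrose synthase rose 2.31-fold (2.23 to 2.39), close to the 2-fold limit, and UDP-glucose pyrophosphorylase 5.65-fold (5.40 to 5.92). Both were called there too, where 9.08% of the unigenes tested were called higher at 25 DAP and 21.1% of those that reached an RPKM of 10. The study assayed these unigenes among a set shown as differentially expressed in these libraries, so their calls are not independent evidence of a stage change.

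The size of the stage change is read against a shift of all unigenes. Over unigenes read in all 4 libraries, the median log2 stage change was 0.55 in Zhewan 1 and -0.22 in Zhongwan 6. Among those of them that reached an RPKM of 10 in any library it was 0.62 in Zhewan 1 and 0.05 in Zhongwan 6. Median-ratio scaling of the libraries subtracts 0.55 from every log2 stage change in Zhewan 1 and -0.23 in Zhongwan 6. With it, the log2 change of sucrose synthase was 3.98 in Zhewan 1 and 1.44 in Zhongwan 6. That of UDP-glucose pyrophosphorylase was 3.0 in Zhewan 1 and 2.73 in Zhongwan 6. All 4 stage calls were also made with this scaling. With a coefficient of variation of 0.4 assumed between libraries, a setting added after seeing the data, sucrose synthase kept its call in Zhewan 1 (adjusted p = 4.83e-05, edgeR likelihood ratio test), and the other 3 stage calls of the members were lost. The higher calls made up 68.7% of all calls in Zhewan 1 with the counted totals and 47.9% with median ratios. In Zhongwan 6 they made up 36.2% with the counted totals and 46.4% with median ratios.

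The cultivars were next compared within each stage. At 25 DAP sucrose synthase was 10.7-fold higher in Zhewan 1 than in Zhongwan 6 (10.5 to 10.95), and the call held under the 3 other scalings tried but not with the assumed variation of 0.4 (adjusted p = 0.00436, edgeR likelihood ratio test). At 25 DAP UDP-glucose pyrophosphorylase was 2.44-fold higher in Zhewan 1 (2.39 to 2.49), and it was called with the counted totals. Its log2 ratio at that stage was 1.28 with the counted totals and 0.90 with median ratios, where it fell short of 2-fold and the call was lost, as it was with the assumed variation (adjusted p = 0.427). Of all unigenes tested at 25 DAP, 12.3% were called higher in Zhewan 1, and 20.6% of those that reached an RPKM of 10. The higher calls made up 71.4% of all calls at 25 DAP with the counted totals and 47.9% with median ratios.

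At 10 DAP neither member was called between the cultivars. The ratio of Zhewan 1 to Zhongwan 6 was 1.07 for sucrose synthase (1.03 to 1.12) and 1.18 for UDP-glucose pyrophosphorylase (1.11 to 1.25). The intervals lie above 1 by counting error alone and well under 2-fold, and the spread between seed samples of a group, which would be needed to judge such small gaps, was not measured. With median ratios the log2 values at 10 DAP were 0.50 for sucrose synthase and 0.63 for UDP-glucose pyrophosphorylase, still under 2-fold. At this stage 3.07% of the unigenes tested were called higher in Zhewan 1, and 9.1% of those that reached an RPKM of 10. The higher calls made up 22.9% of all calls at 10 DAP with the counted totals and 50.8% with median ratios.

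The gap between the cultivars' stage changes was wider for sucrose synthase than for UDP-glucose pyrophosphorylase. The log2 stage change of sucrose synthase was larger in Zhewan 1 than in Zhongwan 6 by 3.32 (3.26 to 3.39, counting error only), a 10.0-fold difference between the 2 fold changes. That of UDP-glucose pyrophosphorylase was larger by 1.05 (0.96 to 1.14), or 2.07-fold. No residual among single libraries is left to test such a difference. Among 9820 unigenes that reached an RPKM of 10 in any library and had 10 or more reads in all 4, 40% had a difference of at least 1, and the median difference was 0.71. Sucrose synthase ranked 302 of 9820 in this difference and UDP-glucose pyrophosphorylase 3764. With median ratios the difference was 2.53 for sucrose synthase and 0.26 for UDP-glucose pyrophosphorylase, with a median of -0.08 over the same unigenes, of which 17.9% then had a difference of at least 1.

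**Figure D2:**
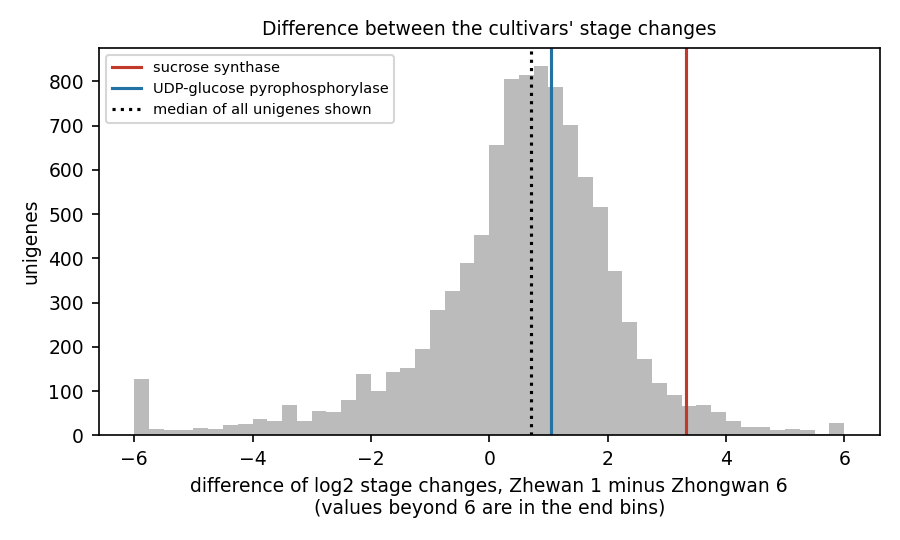
Number of unigenes (y axis) by the difference of their log2 stage changes, Zhewan 1 minus Zhongwan 6 (x axis), for 9820 unigenes with enough reads, values beyond 6 placed in the end bins. The dotted line is their median at 0.71, and the vertical lines mark UDP-glucose pyrophosphorylase at 1.05, near the middle, and sucrose synthase at 3.32, in the upper tail.

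The ratio of the members within a library does not depend on how libraries are scaled. Sucrose synthase had 2.73 times the RPKM of UDP-glucose pyrophosphorylase in Zhewan 1 at 25 DAP (2.69 to 2.76) and 1.38 times in Zhewan 1 at 10 DAP (1.31 to 1.46). In Zhongwan 6 the ratio was 0.618 at 25 DAP (0.603 to 0.633) and 1.51 at 10 DAP (1.44 to 1.59). The late Zhongwan 6 library was the single library with more UDP-glucose pyrophosphorylase than comp38328_c0_seq2 per kb. On the log2 scale the ratio at 25 DAP over that at 10 DAP was 0.98 in Zhewan 1 (0.90 to 1.06) and -1.29 in Zhongwan 6 (-1.37 to -1.21), opposite in direction. Between the cultivars, Zhewan 1 over Zhongwan 6, it was 2.14 at 25 DAP (2.10 to 2.18) and -0.13 at 10 DAP (-0.24 to -0.02).

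**Figure D3:**
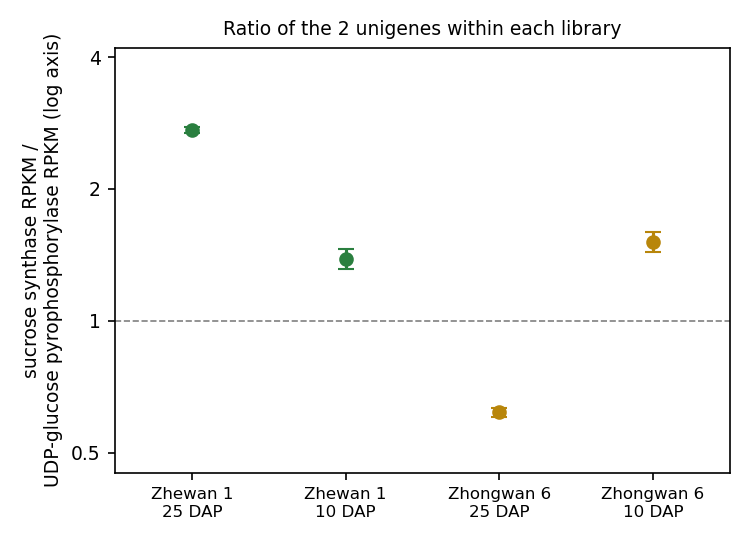
Ratio of sucrose synthase to UDP-glucose pyrophosphorylase RPKM (y axis, log axis) in each of the 4 libraries, with 95% intervals for counting error and a dashed line at equal RPKM. The ratio was 2.73 in late Zhewan 1 seeds and 0.618 in late Zhongwan 6 seeds, while the early libraries of both cultivars lay at 1.38 and 1.51.

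A stage effect common to both cultivars was also fitted, with the cultivar as a term. It takes its spread from how the stage changes differ between the cultivars, not from replicates. In edgeR's quasi-likelihood test the log2 stage effect was 2.69 for sucrose synthase (Benjamini-Hochberg adjusted p = 0.327) and 2.84 for UDP-glucose pyrophosphorylase (adjusted p = 0.146). Both were higher at 25 DAP in 2 of 2 cultivars. This test called 0 of 42328 unigenes (0%) at an adjusted p of 0.05, while 8980 had an unadjusted p under 0.05. DESeq2 called 5426 unigenes, limma on log2(RPKM + 1) 4662, and edgeR without the filter on low counts 6484. Over these 4 fits the adjusted p ranged from 0.00459 to 0.327 for sucrose synthase and from 8.77e-07 to 0.146 for UDP-glucose pyrophosphorylase.

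The assembly groups sequences that share parts into components. The component of sucrose synthase, comp38328_c0, holds 3 sequences, and that of UDP-glucose pyrophosphorylase holds 1. The longer sequence comp38328_c0_seq4, 4312 bp, had 652 RPKM in late and 30.0 in early Zhewan 1 seeds, and 63.1 in late and 27.9 in early Zhongwan 6 seeds. Its RPKM was 0.996 to 1.06 times that of comp38328_c0_seq2 in every library, so both sequences gave nearly the same level per kb. Reads could be counted on more than 1 sequence, so the 2 sequences may share reads and do not count as separate observations. Were the reads split between them instead, the within-library ratios above would understate sucrose synthase. In late Zhongwan 6 seeds the 2 sequences had 60.9 and 63.1 RPKM, against 98.5 for UDP-glucose pyrophosphorylase. The order there could then turn, and which case holds was not tested.

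The short sequence comp38328_c0_seq5, 424 bp, followed another course. It had 465 reads in late and 81 in early Zhewan 1 seeds, and 74 reads in late and 194 in early Zhongwan 6 seeds. Between the stages it rose 5.15-fold in Zhewan 1 (4.06 to 6.61), and its 25 DAP level in Zhongwan 6 was 0.327 of that at 10 DAP (0.247 to 0.430); both changes were called. It made up 0.179% of the component's reads in late and 0.769% in early Zhewan 1 seeds, and 0.235% in late and 1.61% in early Zhongwan 6 seeds. Summed over the component, the stage change was 22.1-fold in Zhewan 1 and 2.25-fold in Zhongwan 6, close to the values of comp38328_c0_seq2 alone.

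**Figure D4:**
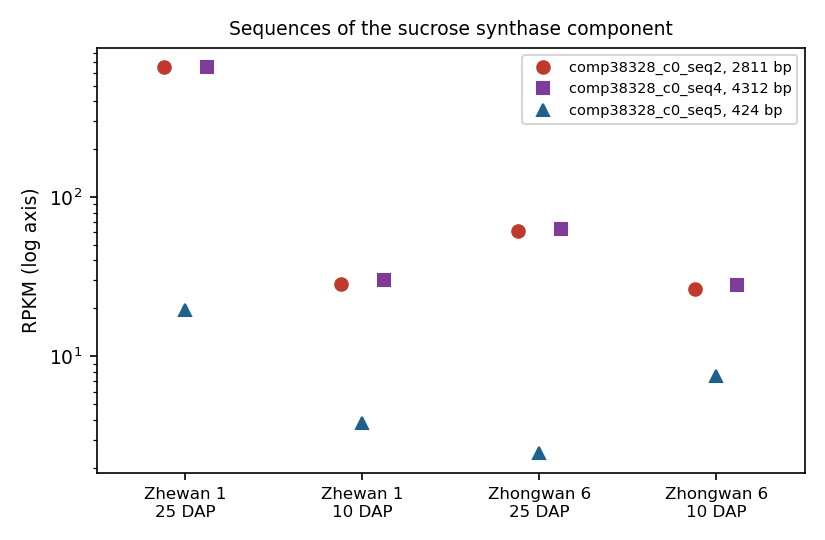
RPKM (y axis, log axis) of the 3 sequences of the sucrose synthase component in the 4 libraries, 1 point per sequence and library. comp38328_c0_seq2 and comp38328_c0_seq4 lie side by side, at 654 and 652 in late Zhewan 1 seeds, while comp38328_c0_seq5 lies below them, at 19.6 in late Zhewan 1 seeds and 2.46 in late Zhongwan 6 seeds.

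The neighbouring steps of sucrose use that were followed rose with the members at 25 DAP in both cultivars. They are 5 unigenes picked from those the study names. Other sugar metabolism genes it names, triosephosphate isomerase among them, were not followed here. All 5 were called higher at 25 DAP in Zhewan 1 and in Zhongwan 6, with a median log2 ratio of 3.32 in Zhewan 1 and 2.73 in Zhongwan 6. Beside this stand the 45.2% of unigenes called higher at that abundance in Zhewan 1 and the 21.1% in Zhongwan 6, and unigenes the study named for these samples are no independent evidence of a stage change. The medians over all unigenes that reached an RPKM of 10 in the higher of the 2 libraries were 0.83 in Zhewan 1 and -0.07 in Zhongwan 6. Phosphoglucomutase, which interconverts glucose 1-phosphate and glucose 6-phosphate, had 148 RPKM in late and 14.9 in early Zhewan 1 seeds, and 114 in late and 15.0 in early Zhongwan 6 seeds. Fructose-bisphosphate aldolase, a glycolytic enzyme, had 723 RPKM in late and 46.9 in early Zhewan 1 seeds, and 273 in late and 77.7 in early Zhongwan 6 seeds. The unigene named ADP-glucose pyrophosphorylase, the enzyme that makes ADP-glucose for starch, had 318 RPKM in late and 7.06 in early Zhewan 1 seeds, and 120 in late and 4.13 in early Zhongwan 6 seeds. Its stage change was the largest among the 5 unigenes, 45.1-fold in Zhewan 1 and 29.0-fold in Zhongwan 6. The other unigene of that enzyme, glucose-1-phosphate adenylyltransferase large subunit 2, rose 3.75-fold in Zhewan 1, the smallest change there, and 6.64-fold in Zhongwan 6. The large stage change is therefore that of 1 unigene and not of the step.

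Between the cultivars at 25 DAP, aldolase (2.65-fold) and ADP-glucose pyrophosphorylase (2.66-fold) were called higher in Zhewan 1, as both members were with the counted totals. Of unigenes that reached an RPKM of 10 in the higher library, 20.6% were called higher and 10% lower at that stage. With median ratios aldolase and ADP-glucose pyrophosphorylase kept their calls narrowly, each at a log2 ratio of 1.02, and UDP-glucose pyrophosphorylase lost its call at 0.90. The large subunit 2 unigene of glucose-1-phosphate adenylyltransferase, the same enzyme by its other name, was called lower, at 24.4 RPKM in Zhewan 1 and 50.5 in Zhongwan 6. That unigene is 650 bp long and 1 of 10 sequences in its component. Other sequences in the components of the neighbouring steps were not examined. Phosphoglucomutase was not called, at 1.30-fold with the counted totals and a log2 ratio of 0.00 with median ratios. Glucose-6-phosphate isomerase, which interconverts glucose 6-phosphate and fructose 6-phosphate, was not called either, at 1.77-fold. With the counted totals none of the 5 was called between the cultivars at 10 DAP, as neither member was. With median ratios ADP-glucose pyrophosphorylase was called higher in Zhewan 1 at that stage, at a log2 ratio of 1.17 against 0.77 with the counted totals. The difference between the cultivars' log2 stage changes was 2.13 for aldolase, 0.86 for the isomerase, 0.64 for ADP-glucose pyrophosphorylase, 0.39 for phosphoglucomutase and -0.82 for the large subunit 2 with the counted totals. With median ratios these differences were 1.35 for aldolase, 0.07 for the isomerase, -0.15 for ADP-glucose pyrophosphorylase, -0.40 for phosphoglucomutase and -1.61 for the large subunit 2, so that the direction turned for ADP-glucose pyrophosphorylase and phosphoglucomutase. Under both scalings each of the 5 lay below sucrose synthase, at 3.32 with the counted totals and 2.53 with median ratios.

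**Figure D5:**
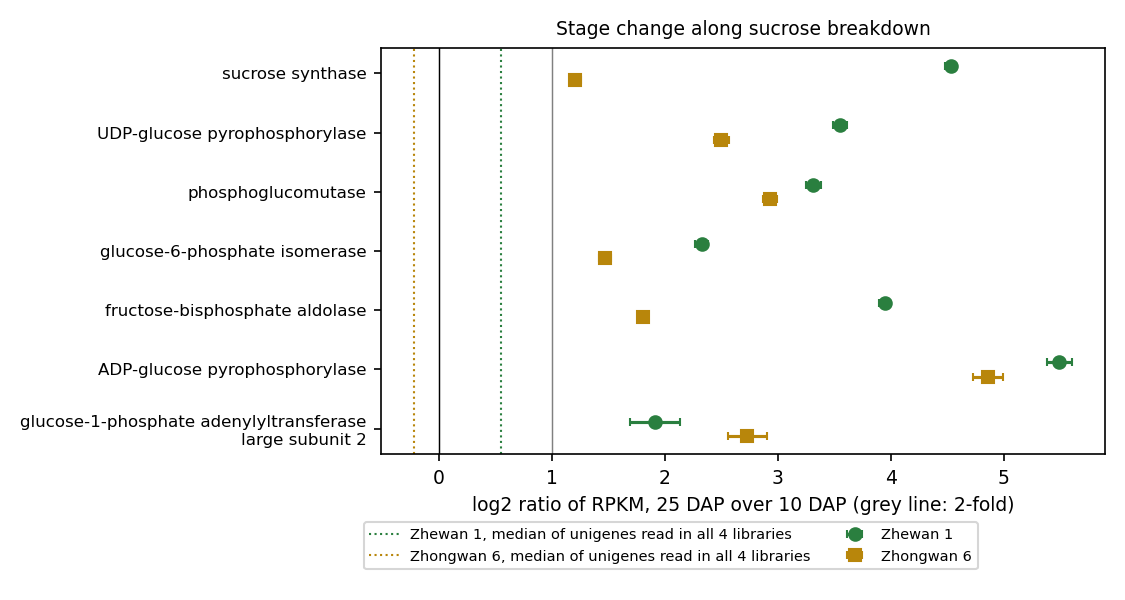
Log2 ratio of RPKM at 25 DAP over 10 DAP (x axis) for the members and 5 neighbouring steps (y axis), circles for Zhewan 1 and squares for Zhongwan 6, with 95% intervals for counting error. Dotted lines are the median stage changes of unigenes read in all 4 libraries, 0.55 in Zhewan 1 and -0.22 in Zhongwan 6, and the grey line is a 2-fold change. Sucrose synthase shows the widest gap between the cultivars, 4.53 in Zhewan 1 and 1.21 in Zhongwan 6.

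Other genes around the pathway were read from the part of the annotation that could be used here. Annotation words for sucrose synthesis and sugar transport matched 9 unigenes in the table, nucleotide-sugar transporters and trehalose phosphate enzymes among them. Of the 9, 3 rose and 0 fell at 25 DAP in Zhewan 1, and 2 rose and 1 fell in Zhongwan 6. The rises in Zhewan 1 were comp12160_c0_seq1, comp12959_c0_seq1 and comp11071_c0_seq1, described below, so the counts say little of sucrose synthesis itself. Of all unigenes tested, 20.7% were called higher and 9.42% lower in Zhewan 1, and 9.08% higher and 16% lower in Zhongwan 6. With median ratios 3 of the 9 rose and 0 fell in Zhewan 1, and 3 rose and 1 fell in Zhongwan 6. Under that scaling 9398 of the 74253 unigenes tested in Zhewan 1 were called higher and 10205 lower. In Zhongwan 6 the numbers were 8469 higher and 9795 lower of 74915. Of the 9, 3 reached an RPKM of 1 in any library. The nucleotide-sugar transporter family unigene comp12959_c0_seq1, of a family that moves sugar nucleotides across internal membranes, had 241 RPKM in late and 47.6 in early Zhewan 1 seeds, and 109 in late and 45.1 in early Zhongwan 6 seeds. Another of that family, comp12160_c0_seq1, had 181 RPKM in late and 38.9 in early Zhewan 1 seeds, and 79.1 in late and 41.8 in early Zhongwan 6 seeds. Both were highest in the late Zhewan 1 library, as the members were, and the second missed the 2-fold limit between the stages in Zhongwan 6 with the counted totals, at 1.89-fold, and was called there with median ratios, at a log2 ratio of 1.15. The sucrose phosphate synthase unigene comp11071_c0_seq1, of an enzyme of sucrose synthesis, had 18 reads in Zhewan 1 at 25 DAP and 0 in each of the other libraries, where a count of 0 allows up to 3 reads.

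Of 16 unigenes for users of UDP-sugars, 3 rose and 3 fell at 25 DAP in Zhewan 1, and 3 rose and 2 fell in Zhongwan 6, with 6 of the 16 at an RPKM of 1 or more in any library. Set against the shares of all unigenes above, the count of rises in Zhewan 1 is near the background. With median ratios 0 rose and 3 fell in Zhewan 1, and the counts in Zhongwan 6 were as before. The background for these counts is the number of all unigenes called under that scaling, given above. The median log2 ratio was 0.84 in Zhewan 1 over 13 unigenes and 1.05 in Zhongwan 6 over 12, those with reads at both stages. With a count of 0 set to 3 reads, where the other stage had more, the median was 0.84 over 15 unigenes in Zhewan 1 and 0.96 over 14 in Zhongwan 6. Between the cultivars at 25 DAP, 1 was called higher and 4 lower in Zhewan 1, where 12.3% of all unigenes tested were called higher and 4.93% lower. With median ratios 0 of the 16 were called higher and 4 lower at that stage. Of the 72654 unigenes tested there, 4957 were called higher and 5389 lower under that scaling. UDP-glucuronic acid decarboxylase 3 (comp13371_c0_seq1), which makes UDP-xylose for cell walls, had 48.8 RPKM in late and 28.7 in early Zhewan 1 seeds, and 31.0 in late and 24.9 in early Zhongwan 6 seeds. It was not called in any of the 4 comparisons. The UDP-glycosyltransferase unigene comp13091_c0_seq1 had 0.53 RPKM in late and 17.0 in early Zhewan 1 seeds, and 23.4 in late and 3.85 in early Zhongwan 6 seeds, so that the cultivars moved in opposite directions. For hexose phosphate turnover, fructose-2,6-bisphosphatase (comp12741_c0_seq1) had 2.49 RPKM in late and 0.91 in early Zhewan 1 seeds, and 1.36 in late and 1.59 in early Zhongwan 6 seeds. It was called in Zhewan 1 with the counted totals, as the 1 call between the stages among 2 unigenes of that list, and was not called with median ratios, at a log2 ratio of 0.89.

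The unigenes closest in profile were sought over the 4 libraries by the distance of centred log2(RPKM + 1), as a description. For UDP-glucose pyrophosphorylase, among 10403 unigenes, these were comp37628_c0_seq7 (distance 0.0553), comp26979_c0_seq1 (0.0667) and comp30280_c0_seq2 (0.124). The closest, comp37628_c0_seq7, had 142 RPKM in late and 12.1 in early Zhewan 1 seeds, and 60.9 in late and 10.4 in early Zhongwan 6 seeds. For sucrose synthase, among 10401 unigenes, they were comp35359_c0_seq19 (0.220), comp35359_c1_seq12 (0.227) and comp35359_c0_seq6 (0.232). The first of these, comp35359_c0_seq19, had 26.5 RPKM in late and 0.11 in early Zhewan 1 seeds, and 1.19 in late and 0.16 in early Zhongwan 6 seeds, so its closeness rests on the pseudocount of 1. Without a pseudocount, a choice made after these values were seen, the closest was comp27056_c0_seq1, which had 23.8-fold more at 25 DAP in Zhewan 1 and 2.24-fold more in Zhongwan 6. None of these unigenes has a name in the sources used here.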

How the data were processed

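The authors built 1 assembly from the pooled reads, aligned every library's clean reads to its unigenes with Bowtie 0.12.8 and deposited read counts for 4 libraries. The authors also deposited RPKM, the count per kb scaled to all counted reads of that library; recomputed here, it matched within 0.01% in all but 2 entries. The counted totals exceed the clean reads the study gives, so reads were counted on more than 1 sequence. No sequences were used here, and the member names are the study's.

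Ratios and calls used the deposited values, with no pseudocount or filter: Fisher's exact test (two-sided), Benjamini-Hochberg over all unigenes read in either library, FDR 0.001, 2-fold. The stage effect used edgeR's quasi-likelihood test (TMM, filterByExpr) with Benjamini-Hochberg adjustment. The alternatives were median-ratio and TMM scaling, totals without the 100 most abundant unigenes, pseudocounts of 1 and 0.1, an RPKM minimum of 10, a chi-square test, component sums, DESeq2 and limma. An assumed coefficient of variation of 0.4 was added after seeing the data. Both statistical steps were also run on simulated data. For the stage effect the simulated cultivars did not differ, unlike these libraries, so that run does not show how the test fares on them.

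The members, gene lists and tests were chosen with earlier results of these data known. The unigenes named are the members, their components, 5 neighbouring steps, a selection from the annotation lists and the 3 nearest profiles. From the lists, some unigenes with an RPKM of at least 1 are not named, and some named ones stay below it. Of 1998 annotation entries that could be read, 1121 name a unigene of the table. Software: Python 3.11.15, SciPy 1.17.1, R 4.3.3, edgeR 4.0.16, limma 3.58.1 and DESeq2 1.42.0.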

Additional observations from a re-analysis of the deposited data

Results flagged for a closer look

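Among the named unigenes, 14 had log2 stage changes of opposite sign in Zhewan 1 and Zhongwan 6 with the counted totals. For 6 of them both counting intervals lay clear of no change, on opposite sides. The share of all unigenes with opposite signs was not counted. The medians over unigenes read in all 4 libraries were themselves opposite, 0.55 in Zhewan 1 and -0.22 in Zhongwan 6, so these counts are not read as a trait of the named unigenes. Each value comes from 1 library per stage, and the difference between the cultivars was not tested. The log2 stage change of the short sucrose synthase component sequence comp38328_c0_seq5 was 2.36 in Zhewan 1 and -1.61 in Zhongwan 6. That of the UDP-glycosyltransferase unigene comp13091_c0_seq1 was -5.02 in Zhewan 1 and 2.61 in Zhongwan 6. That of comp12737_c0_seq1, a late embryogenesis abundant hydroxyproline-rich glycoprotein family unigene, was -1.39 in Zhewan 1 and 1.80 in Zhongwan 6. That of comp12505_c0_seq2, of the cellulose synthase family, was 2.17 in Zhewan 1 and -1.06 in Zhongwan 6, and that of comp13522_c0_seq1, a cupin, 0.66 in Zhewan 1 and -1.03 in Zhongwan 6. The cellulose synthase family unigene was not called in Zhongwan 6, with an FDR of 0.00471 in Fisher's exact test. The cupin was not called in Zhewan 1, at 1.58-fold. With median ratios its log2 change was 0.11 in Zhewan 1 and -0.80 in Zhongwan 6, so its rise in Zhewan 1 rests on the counted totals. The UDP-glycosyltransferase unigene comp10407_c0_seq1 was counted 0 times in late and 8 times in early Zhewan 1 seeds, which with 3 reads allowed for the 0 is a change of -1.57 or lower, and its change in Zhongwan 6 was 0.97. It was called between the stages in neither cultivar. For the other 8 unigenes, fructose-2,6-bisphosphatase among them, counting error leaves the direction in at least 1 cultivar undecided. The log2 change of the within-library ratio of sucrose synthase to UDP-glucose pyrophosphorylase was 0.98 in Zhewan 1 and -1.29 in Zhongwan 6.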

How the results depend on the processing

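No direction of a member turned under any setting run. The call of UDP-glucose pyrophosphorylase between the cultivars at 25 DAP was lost at log2 ratios of 0.90 with median ratios, 0.85 with TMM and 0.96 without the 100 most abundant unigenes. Under the same 3 scalings the difference between the cultivars' stage changes was 2.53, 2.51 and 2.81 for sucrose synthase and 0.26, 0.24 and 0.54 for UDP-glucose pyrophosphorylase, since each scaling moves the libraries against each other. With an assumed coefficient of variation of 0.4, sucrose synthase in Zhewan 1 (adjusted p = 4.83e-05, edgeR likelihood ratio test) kept its stage call. Lost were the calls at log2 ratios of 3.55 (UDP-glucose pyrophosphorylase between stages in Zhewan 1), 1.21 and 2.50 (sucrose synthase and UDP-glucose pyrophosphorylase in Zhongwan 6), and 3.43 and 1.28 (the same members between cultivars at 25 DAP). In the order stage change in Zhewan 1, stage change in Zhongwan 6, 25 DAP and 10 DAP, unigenes called numbered 22349, 18799, 12513 and 9579. They numbered 14374, 10878, 6220 and 4613 with a pseudocount of 1, 5762, 4038, 2467 and 2117 with an RPKM minimum of 10, and 4400, 4157, 1696 and 221 with the assumed variation. Component sums left 14777 and 12437 calls for the stage changes. With the summed reads divided by the summed length of the component's sequences, the 25 DAP within-library ratios were 2.57 for Zhewan 1 and 0.597 for Zhongwan 6. That averages the sequences and cannot show the ratio for reads split between them. The stage effect over both cultivars gave 0 calls in edgeR with the filter, 6484 without it, 5426 in DESeq2 and 4662 in limma. Sucrose synthase then passed at log2 2.69 in DESeq2 and 2.83 in limma, and UDP-glucose pyrophosphorylase at 2.87 in edgeR without the filter, 2.84 in DESeq2 and 2.96 in limma; the cause was not tested. No paired analysis was possible because the labels carry no replicate numbers; the cultivar, as a term in the stage effect, is the one block these libraries allow. No library could be left out, with 1 in each group. Depth does not limit the members, which had at least 2109 reads in every library; the missing replicates do.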
